A study of Mus musculus with 82 samples.

Results

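In mouse stembryos, 2016 stretches of chromatin away from any annotated transcription start had no H3K27ac region at 48 h and carried one at each of 120, 132, 144 and 168 h. They were found by merging all regions of the 9 wt H3K27ac lists without a replicate number, 1 per stage from 48 to 168 h, into 116363 regions, of which 80974 were distal, meaning that no start annotated on mm10 lay within 2.5 kb. The 2016 gained and kept regions were 2.49% of these distal regions. A second set served as the measure of comparison: 2125 distal regions (2.62%) with the same calls at all 4 late stages and, in addition, a call at 48 h. Since the H3K27ac calls of the 9 lists chose both sets, those calls are given below as a description, and tests were run on other libraries and other proteins.

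Stembryos, also called gastruloids, are aggregates of mouse embryonic stem (mES) cells that break symmetry and elongate in culture, and the study followed how HoxD genes are switched on in order along this timecourse. All groups came from 129/SVEV mES cells aggregated in wells and given a pulse of Chiron, a GSK-3 inhibitor that acts as a Wnt agonist, between 48 h and 72 h, and each library was made from pooled stembryos. From 108 h on, only stembryos that had elongated were collected, so the later lists describe selected aggregates. The groups were wt stembryos at all stages, and the deletion lines Del(CBS1) and Del(CBS1-2), each sampled at 96 h and 120 h, in which the first, or the first and the second, CTCF binding site of the HoxD cluster had been removed with CRISPR-Cas9 in a clonal line, Del(CBS1-2) on top of Del(CBS1). The assays were ChIP-seq for H3K27ac, H3K27me3, CDX2 and RNA polymerase II phosphorylated at serine 2 (pSer2 PolII), and ChIPmentation, in which Tn5 adds the adapters on the beads, for CTCF, RAD21, NIPBL and total PolII. In pooled tissue, fewer cells with a region and a weaker signal in each cell cannot be told apart.

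H3K27ac is acetylation of histone H3 at lysine 27, a mark of active promoters and enhancers. Enhancers are distal elements bound by transcription factors, and their activity changes with cell state. NIPBL loads the cohesin ring, RAD21 is a subunit of that ring, and cohesin moving along DNA tends to halt where the insulator protein CTCF is bound. CDX2 is a caudal-type homeodomain factor of the posterior embryo that acts downstream of Wnt signaling and controls Hox genes during trunk extension.

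Short sequence motifs recur in the results, so the sequence at the center of several gained regions is given first. Each stretch covers 160 bases on the plus strand of mm10 (RefSeq, GRCm38.p6), centered on the highest CDX2 summit for the Evx1 and Msx2 regions and on the NIPBL summit at 144 h for the Fgfr2 and HoxD regions, and none overlapped an annotated exon. Capitals mark letters that matched 1 of the 16 motifs searched on either strand.
Evx1 region, 54.5 kb downstream of the gene, chr6:52368903-52369062, 2 GATA matches: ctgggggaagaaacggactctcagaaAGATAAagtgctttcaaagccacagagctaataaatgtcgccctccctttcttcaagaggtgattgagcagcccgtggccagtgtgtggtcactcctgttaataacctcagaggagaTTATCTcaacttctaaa
Msx2 region, 9.76 kb from the start, chr13:53462406-53462565, PBX-HOX and E-box matches: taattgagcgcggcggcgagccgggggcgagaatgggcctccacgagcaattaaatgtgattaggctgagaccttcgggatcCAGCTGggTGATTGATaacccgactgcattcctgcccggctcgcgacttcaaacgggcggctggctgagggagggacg
Fgfr2 region, in an intron of the gene, chr7:130335594-130335753, CDX, PBX-HOX, SOX, FOX and E-box matches: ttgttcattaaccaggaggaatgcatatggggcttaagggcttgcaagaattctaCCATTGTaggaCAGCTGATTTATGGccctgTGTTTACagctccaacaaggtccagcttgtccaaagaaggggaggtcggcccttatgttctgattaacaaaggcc
HoxD region, 323 kb from the cluster, chr2:75089605-75089764, no match: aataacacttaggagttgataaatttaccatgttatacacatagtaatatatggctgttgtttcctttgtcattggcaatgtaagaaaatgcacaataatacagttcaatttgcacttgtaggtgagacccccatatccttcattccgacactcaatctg
In the Fgfr2 stretch, the E-box, PBX-HOX and CDX letters overlapped one another in a single run of capitals.

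A pair of regions among those with the highest CDX2 fold enrichment at 120 h, a choice made after their values were seen, is shown for the same reason, each centered on the CDX2 summit at 120 h.
Irx1 region, 246 kb from the start, chr13:72210217-72210376, CDX and SOX matches: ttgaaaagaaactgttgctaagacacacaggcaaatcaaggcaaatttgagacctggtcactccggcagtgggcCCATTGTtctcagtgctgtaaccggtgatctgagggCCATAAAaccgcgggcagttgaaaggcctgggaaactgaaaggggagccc
Psat1 region, 70.7 kb from the start, chr19:15837802-15837961, GATA and E-box matches: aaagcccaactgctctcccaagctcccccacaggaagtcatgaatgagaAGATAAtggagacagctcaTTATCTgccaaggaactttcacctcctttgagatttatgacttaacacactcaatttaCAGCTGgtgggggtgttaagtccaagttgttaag
Their CDX2 fold enrichment at 120 h, the fragment pairs at the summit over the local background after adding 1 pair to each, was 10.8 and 11.7, from 56 pairs over a background of 4.26 and 50 pairs over 3.35. At 96 h the same regions had CDX2 at 12.6 and 10.3. The exact CDX letters were in the Irx1 stretch and not in the Psat1 stretch, which says nothing of CDX2 at the latter.

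The wt H3K27ac lists held between 24002 regions, at 144 h, and 67663, and the 12 numbered libraries between 50882 and 63020. No pair of lists was identical. The files give no total read number, but the lowest local background in each list, which scales with depth, ran from 2.85 to 4.30 fragment pairs in the 9 unnumbered lists and from 2.97 to 4.53 in the numbered ones. The labelled stages were checked on H3K27ac at the starts of 16 marker genes. Regions lay at the starts of Pou5f1, Nanog, Zfp42 and Dppa5a, genes of pluripotent cells, at 48 h, and at none of these 4 from 108 h on. The other markers followed the stages less closely. Of 4 paraxial mesoderm genes, Meox1 had a region from 108 h to 144 h, Tcf15 at 72 h and from 108 h on, Tbx6 from 84 h on but not at 144 h, and Msgn1 from 48 h to 132 h and not later. Of the axial genes, T and Nkx1-2 were called at all 9 stages, Cdx2 from 72 h on and Fgf8 from 72 h on but not at 144 h. Of the neural genes, Pax6 was called at all 9 stages, Irx3 from 72 h on, Sox1 at all but 120 h, and Olig3 from 48 h to 108 h and not later.

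The gained regions lay farther from protein-coding starts than the regions already called at 48 h, although many lay within genes. Their median width was 1301 bp, with a range from 336 to 3640 bp, against 1494 bp in the regions already called at 48 h and 454 bp in all other distal regions. These are widths of merged regions, which grow with the number of lists merged. By the rule each gained region was in at least 4 lists, while 58.1% of all distal regions were called at 1 stage only. The median distance to the nearest protein-coding start was 43.1 kb, and 555 (27.5%) lay more than 100 kb away. The regions already called at 48 h were nearer, with a median of 22.5 kb and 14.2% beyond 100 kb. Introns held 965 (47.9%), exons 52 (2.58%), and 999 (49.6%) were intergenic. Another gained region lay within 100 kb of 836 (41.5%) and within 10 kb of 211 (10.5%), with a median gap of 162 kb. The regions already called at 48 h lay no farther apart, with 11.4% within 10 kb of another and a median gap of 117 kb. Chromosome 4 held 162 and chromosome 2 held 156, while the X chromosome held 23.

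Although all of these regions were present from 120 h, most had appeared before. In the unnumbered lists, the number called was 415 (20.6%), 717 (35.6%), 1274 (63.2%) and 1728 (85.7%) in the 72, 84, 96 and 108 h lists, and only 173 (8.58%) had no call before 120 h. The comparison regions were called in 85.5%, 85.4%, 93.1% and 95.6% at these stages. Grouped by the stage from which every later list had a call, 314 (15.6%) were kept from 72 h, 324 (16.1%) from 84 h, 529 (26.2%) from 96 h, 561 (27.8%) from 108 h and 288 (14.3%) from 120 h. Early regions were wider, with medians of 1499, 1460, 1393, 1157 and 961 bp in this order. They were also merged from more lists, which can widen a region. Their median fold enrichment in the unnumbered 120 h list ran from 3.57 in those kept from 72 h to 3.10 in those kept from 120 h. At the distance limit, the nearest starts of the closest regions kept were 2504, 2506 and 2511 bp away, and those of the closest regions left out were 2477, 2487 and 2495 bp away. Without the distance limit 2868 regions met the pattern, so 852 lay near a start. A further 2404 distal regions absent at 48 h missed 1 of the 4 late calls, 1091 of them the one at 144 h, the shortest list.

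**Figure D1:**
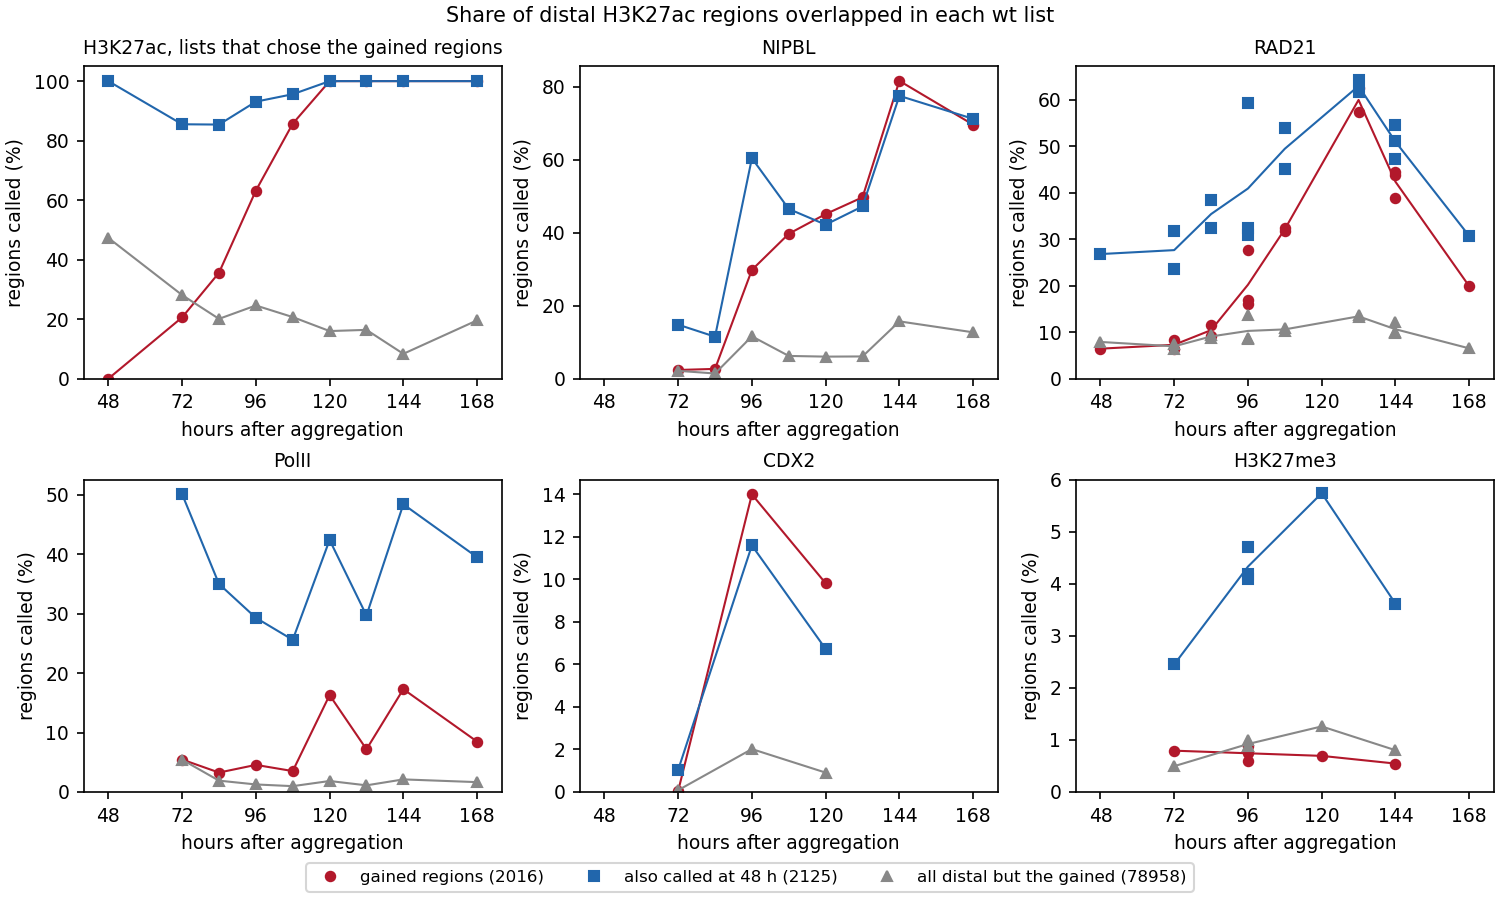
Share of regions (vertical axis, percent) overlapped by H3K27ac, NIPBL, RAD21, PolII, CDX2 or H3K27me3 at each stage (horizontal axis, hours) in wt stembryos, for the 2016 gained regions, the 2125 regions also called at 48 h and all distal regions but the gained ones, with 1 point per list and lines through the stage means. NIPBL at the gained regions went from 2.38% at 72 h to 81.6% at 144 h, whereas PolII stayed between 3.27% and 17.3%. The H3K27ac points at 48 h and from 120 h on were set by the choice of regions.

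The gain between 96 h and 120 h was then measured in the 12 numbered H3K27ac libraries, which had no part in choosing the regions. In wt stembryos 69.0% and 64.0% of the gained regions were called at 96 h (66.5 ± 3.54%, SD, n = 2), and 96.9% and 95.6% at 120 h (96.3 ± 0.912%, SD, n = 2). Del(CBS1) stembryos had 66.6% and 66.6% at 96 h and 98.3% and 97.4% at 120 h, and Del(CBS1-2) stembryos 70.9% and 71.8% at 96 h and 98.4% and 98.8% at 120 h. No library at 96 h reached any library at 120 h. The mean difference was 29.4 percentage points, with 29.7 points in wt, 31.2 in Del(CBS1) and 27.2 in Del(CBS1-2). Each was larger than the spread between replicates of that genotype. The p of 0.00926 was the smallest the 216 arrangements within genotypes allow (two-sided exact permutation test, n = 12, Benjamini-Hochberg adjusted p = 0.0278 over 6 tests). Regions already called at 48 h moved by 6.24 points, from between 88.8% and 93.2% at 96 h to between 95.2% and 98.6% at 120 h. The gained regions moved by 23.1 points more than these. Since the regions were chosen for an absence at 48 h and a presence at 120 h, and the comparison regions for a presence at both, the choice itself favors a rise and this difference, which is given as a description. Per the study's methods, the wt and mutant libraries were biological duplicates, each from pooled stembryos, and some replicates came from different cultures. Which ones did is not stated, so part of the spread behind the p-values may be technical.

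Counts of single regions are given as a description as well, since the choice of regions favors a rise in them too. At 96 h, 1067 gained regions (52.9%) were called in 6 of 6 numbered libraries and 365 (18.1%) in none, and at 120 h 1829 (90.7%) were called in 6 of 6 and 6 (0.298%) in none. Of all distal regions, 13.6% were called in 6 of 6 libraries at 96 h and 14.2% at 120 h. The shares in the comparison regions were 81.3% for 6 of 6 and 2.07% for none at 96 h, and 91.3% for 6 of 6 at 120 h. From none at 96 h to all 6 at 120 h went 301 gained regions (14.9%) and 30 comparison regions (1.41%), a difference that the choice of the sets favors. Counting an absent call as 0, the median fold enrichment of the gained regions was between 3.09 and 3.43 in the 6 libraries at 96 h and between 3.77 and 4.01 at 120 h, without overlap. In the comparison regions the ranges were 4.01 to 4.51 and 4.09 to 4.44. The wt libraries at 120 h were the shallower ones, with a lowest background of 3.05 and 2.97 pairs against 3.74 and 3.36 at 96 h, while those of Del(CBS1-2) were deeper at 120 h, with 4.53 and 4.16 pairs against 3.93 and 3.69.

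**Figure D2:**
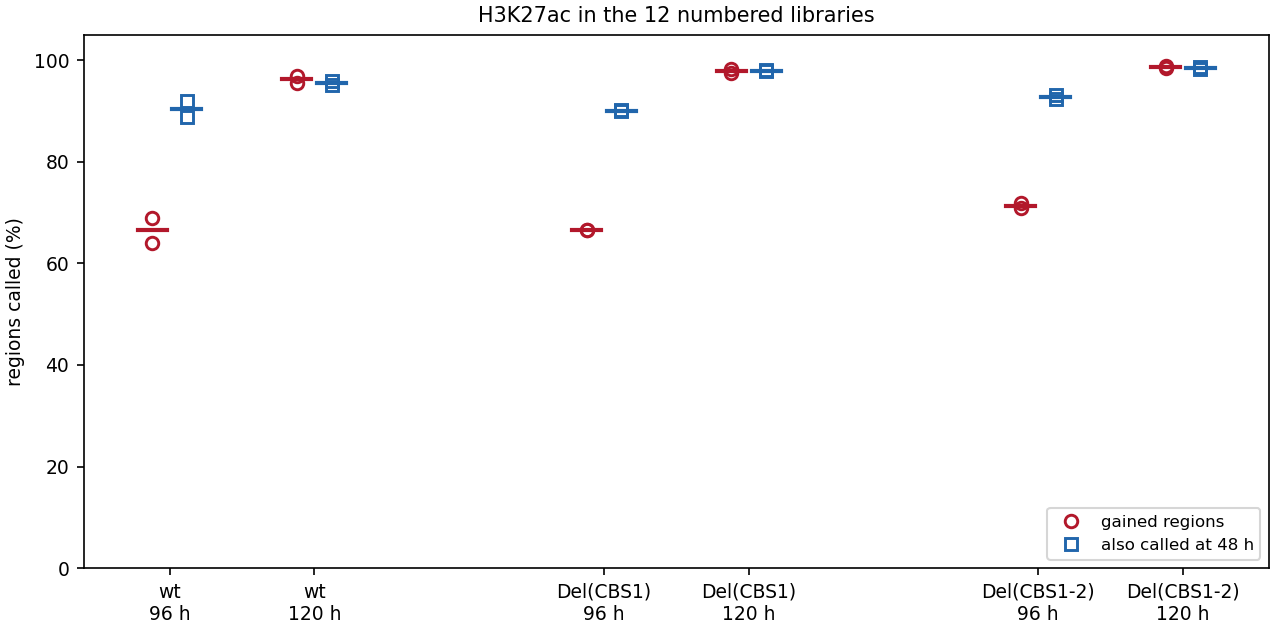
Share of regions called (vertical axis, percent) in each of the 12 numbered H3K27ac libraries by genotype and stage, for gained regions and for regions also called at 48 h, with 1 point per library and a bar at the mean. Gained regions rose from between 64.0% and 71.8% at 96 h to between 95.6% and 98.8% at 120 h in all 3 genotypes.

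Loss of the HoxD CTCF sites made no difference to these regions that passed the test. Averaged over both stages, the deletion libraries called 2.18 percentage points more of the gained regions than wt (exact permutation p = 0.111, adjusted p = 0.133, n = 12, and 0.00444 is the smallest p the 225 arrangements allow). The difference was 0.806 points for Del(CBS1) (exact permutation p = 0.500, n = 8) and 3.55 points for Del(CBS1-2) (exact permutation p = 0.0556, n = 8, the smallest p its 36 arrangements allow). The Del(CBS1-2) libraries carry another label tag than the wt and Del(CBS1) ones, so genotype and what the tag stands for cannot be told apart. Measured against the comparison regions, the deletion libraries differed from wt by 0.294 points (exact permutation p = 0.662, n = 12). Without the first wt library at 96 h, the deletion libraries were 3.43 points above wt and the call passed the threshold (exact permutation, adjusted p = 0.0267, n = 11), and without the second they were 0.924 points above (adjusted p = 0.653). Counting only summits whose −log10 q reached 5, the difference was 6.42 points (exact permutation p = 0.0489, adjusted p = 0.0733, n = 12).

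Up to 108 h, NIPBL lay on a smaller share of the gained regions than of those already called at 48 h. In the single list of each stage, NIPBL lay on 2.38%, 2.68%, 29.8%, 39.7%, 45.1%, 49.7%, 81.6% and 69.6% of the gained regions, for 72, 84, 96, 108, 120, 132, 144 and 168 h in turn. The comparison regions had 14.8%, 11.5%, 60.4%, 46.5%, 42.2%, 47.2%, 77.5% and 71.2%, so the gained regions were above them from 120 h to 144 h. Of all distal regions, 17.3% had NIPBL at 144 h. By rank, the difference between the sets was larger in favor of the gained regions at later stages, but the trend did not pass the threshold after adjustment (Spearman's rho = 0.76, exact permutation p = 0.0368, adjusted p = 0.0735, n = 8 stages). The sets were chosen to differ in H3K27ac at 48 h and to agree from 120 h on. The part of that choice in this trend, and in those of RAD21 and PolII below, was not tested. Pearson's r was 0.60 (exact permutation p = 0.112, adjusted p = 0.168 over 3 correlations, n = 8) and 0.71 without 72 h and 168 h. The NIPBL lists ranged from 4888 regions at 84 h to 40490 at 144 h, and with each list cut to its 4888 strongest regions rho was 0.83 (exact permutation, adjusted p = 0.0308, n = 8). There was 1 NIPBL list per stage, so no replicate check of a single stage was possible.

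The stage at which NIPBL came moved with the stage from which H3K27ac was kept. At 96 h, NIPBL lay on 70.1% of the regions kept from 72 h, 56.5% of those kept from 84 h, 26.3% of those kept from 96 h, 4.63% of those kept from 108 h and 11.5% of those kept from 120 h. At 120 h the regions kept from 108 h had reached 49.9%, near the 53.2%, 50.9% and 47.4% of the earlier classes, while those kept from 120 h stood at 16.3%. By 144 h all 5 classes lay between 75.3% and 84.1%. A split of the gained regions by their calls in the numbered libraries, which measure the same mark again at 96 h, gave the same order up to 120 h. Regions called in none of the 6 libraries at 96 h had NIPBL in 1.37%, 15.6%, 47.1% and 85.8% of cases in the 96, 108, 120 and 144 h lists. Those called in 6 of 6 had 50.5%, 56.8%, 51.0% and 82.0%.

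**Figure D3:**
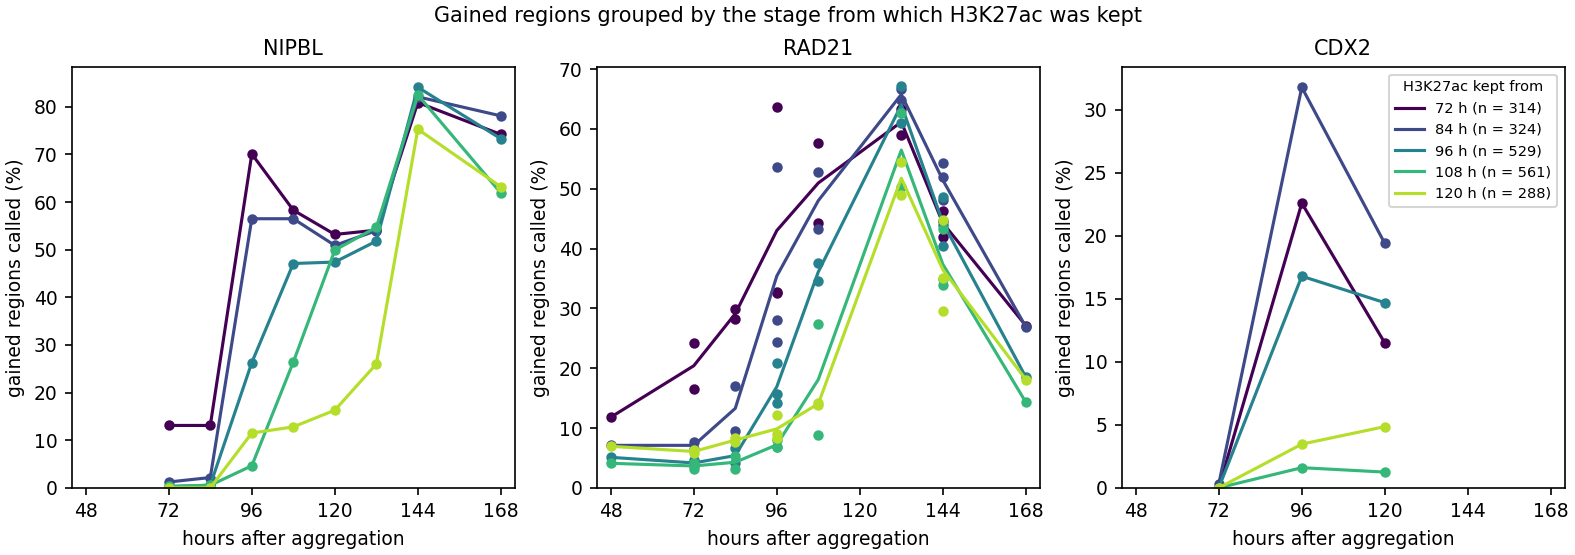
Share of gained regions (vertical axes, percent, on different scales) with NIPBL, RAD21 or CDX2 at each stage (horizontal axes, hours), split by the stage from which H3K27ac was kept, with 1 point per library and lines through the means of classes of 288 to 561 regions. NIPBL on regions kept from 108 h stood at 4.63% and 49.9% at the stages 96 h and 120 h, and CDX2 at 96 h lay on 31.8% of regions kept from 84 h and 1.60% of those kept from 108 h.

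RAD21 was found on few gained regions at first and on most at 132 h. Averaged over the libraries of a stage, RAD21 lay on 6.45%, 7.29%, 10.4%, 20.2%, 32.2%, 60.0%, 42.4% and 19.9% of them, for 48, 72, 84, 96, 108, 132, 144 and 168 h in turn. In the comparison regions the means were 26.8%, 27.6%, 35.4%, 40.9%, 49.5%, 62.9%, 51.0% and 30.7%. The sets were nearest to each other at 132 h, but the trend of their difference with stage did not pass the threshold (rho = 0.69, exact permutation p = 0.0694, adjusted p = 0.104, n = 8 stages). Pearson's r was 0.76 (exact permutation p = 0.0316, adjusted p = 0.0947 over 3 correlations, n = 8) and 0.87 without 48 h and 168 h. The RAD21 lists ranged from 31823 regions in a 72 h library to 71196 in a 132 h library, with 34316 at 168 h. With each list cut to its 31823 strongest regions rho was 0.62 (exact permutation, adjusted p = 0.138, n = 8). The part of list length in the shares was not tested. The RAD21 libraries carry 2 label tags, and within them rho was 0.75 (exact permutation p = 0.0663, n = 7) and 0.86 (exact permutation p = 0.0238, n = 7).

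Most of the gained regions with RAD21 at 132 h had no CTCF, but neither had 89.3% of all gained regions. CTCF, in either of the 2 wt lists, overlapped 215 gained regions (10.7%, 95% Clopper-Pearson interval 9.35% to 12.1%), near the 9.91% of all distal regions and below the 28.8% of the comparison regions. These intervals, here and below, cover counting error only. At the 215 regions with CTCF, RAD21 was already present at 48 h in 55.8% and at 132 h in 87.0% and 93.5%. At the 1801 regions without CTCF the share was 0.555% at 48 h, 53.8% and 58.9% in the libraries of 132 h, 39.9%, 33.6% and 39.1% in those of 144 h, and 14.4% at 168 h. At 96 h the 3 libraries gave 21.9%, 10.2% and 10.8%, a wider spread than at any other stage with replicates. The comparison regions without CTCF started higher, at 10.5% at 48 h, and reached 51.5% and 52.5% at 132 h. In both libraries at 132 h, 964 gained regions (47.8%) had RAD21, against 10.4% of all distal regions and 52.8% of the comparison regions. Of these, 781 had no CTCF, which is 38.7% of the gained regions, whereas the same combination made up 28.5% of the comparison regions. With or without RAD21, 89.3% of the gained and 71.2% of the comparison regions had no CTCF. At 144 h, 545 gained regions had RAD21 in all 3 libraries, and 519 of them, 25.7% of the gained regions, also had NIPBL. The comparison regions were higher on both counts, with 37.6% and 34.3%, and the other distal regions had 7.16% and 2.81%.

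**Figure D4:**
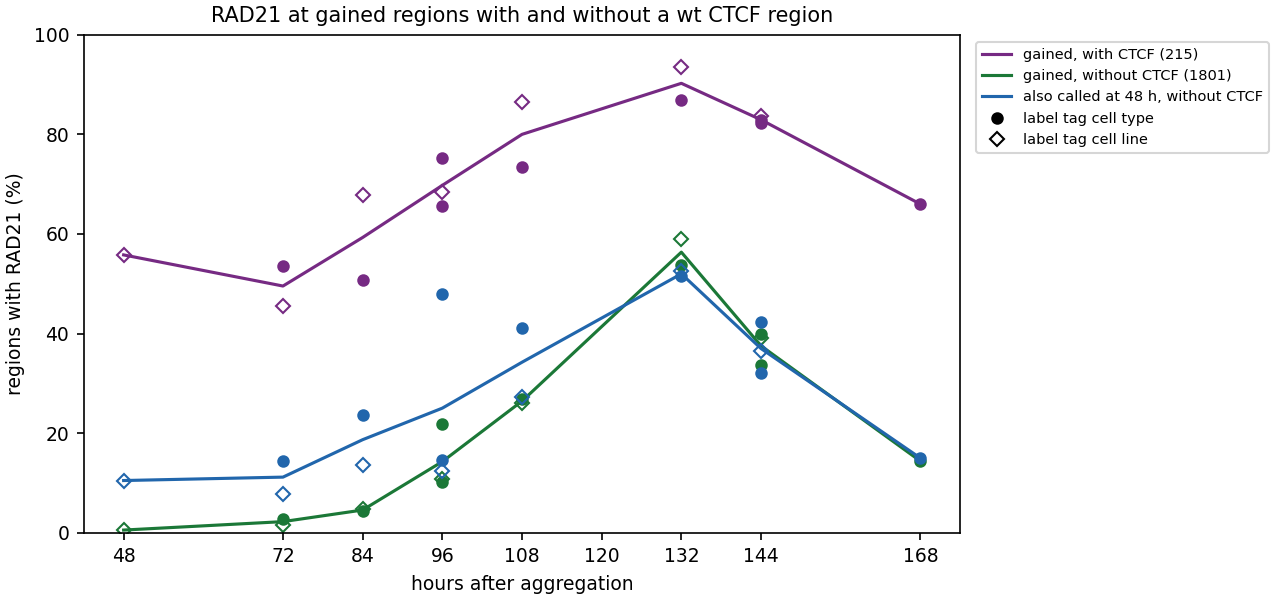
Share of regions with RAD21 (vertical axis, percent) by stage (horizontal axis, hours), for gained regions with and without CTCF in either wt list and for regions also called at 48 h without CTCF, with 1 point per library, its fill giving the label tag, and lines through the means. At gained regions without CTCF, RAD21 was at 0.555% in the 48 h library and at 53.8% and 58.9% in those of 132 h, and at those with CTCF it was never below 45.6%.

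Total PolII was called on few of the gained regions. At the 8 stages from 72 h to 168 h it lay on 5.46%, 3.27%, 4.56%, 3.52%, 16.3%, 7.19%, 17.3% and 8.48% of them, and on between 25.6% and 50.1% of the comparison regions. At 144 h, 2.49% of all distal regions had PolII. The difference between the sets had no trend that passed the test (rho = 0.31, exact permutation p = 0.462, adjusted p = 0.462, n = 8 stages), with a Pearson's r of 0.36 (exact permutation p = 0.397, adjusted p = 0.397 over 3 correlations, n = 8) that became 0.07 without 72 h and 168 h. Without 72 h or without 84 h, rho was -0.04. PolII was called at any stage on 29.3% of the gained and 66.4% of the comparison regions, whereas NIPBL at any stage was on 88.7% and 89.6%. pSer2 PolII, the elongating form, lay on between 0.248% and 2.33% of the gained regions and between 3.44% and 20.9% of the comparison regions over 5 lists, while all other distal regions had between 0.396% and 2.26%, much like the gained ones. H3K27me3, the mark of Polycomb repression, lay on between 0.546% and 0.893% of the gained regions in the 6 wt lists and on 2.45% to 5.74% of the comparison regions. At 120 h it was on 0.694% of the gained and 1.24% of all distal regions, but at 72 h on 0.794% of the gained and 0.496% of the other distal regions. Over any of the 6 lists the shares were 1.49% and 1.56%, against 7.11% of the comparison regions.

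CDX2 lay on a larger share of the gained regions at 96 h than at 120 h, and so it did of all distal regions. The CDX2 lists, 1 library each, held 147 regions (72 h), 4501 regions (96 h) and 2272 regions (120 h). A single gained region had CDX2 at 72 h. The number was 282 at 96 h (14.0%, interval 12.5% to 15.6%) and 198 at 120 h (9.82%, interval 8.56% to 11.2%). Of all distal regions, 2.32% had CDX2 at 96 h and 1.13% at 120 h. The comparison regions had CDX2 on 11.6% at 96 h and 6.73% at 120 h. At either of these stages CDX2 was on 336 gained regions (16.7%), with 144 (7.14%) at both, 138 (6.85%) at 96 h alone and 54 (2.68%) at 120 h alone. In this order, the shares were 12.9%, 5.41%, 6.21% and 1.32% in the comparison regions, and for both stages, 96 h alone and 120 h alone they were 0.633%, 1.39% and 0.279% in the other distal regions. Seen from CDX2, 8.42% of its distal regions at 96 h and 11.4% at 120 h lay on a gained region.

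CDX2 lay on a larger share of the regions kept from 72 h, 84 h or 96 h than of those kept from later stages, though on a minority of each class. At 96 h it lay on 22.6% of regions kept from 72 h, 31.8% of those kept from 84 h, 16.8% of those kept from 96 h, 1.60% of those kept from 108 h and 3.47% of those kept from 120 h, and at 120 h on 11.5%, 19.4%, 14.7%, 1.25% and 4.86%. The numbered libraries gave the same contrast, with CDX2 at 96 h on 25.2% of the regions called in 6 of 6 libraries at 96 h and on 0.274% of those called in none. Regions with CDX2 at both stages had H3K27ac in 100% and 98.6% of cases in the numbered wt libraries at 96 h, against 63.2% and 57.7% of the 1680 regions without CDX2. NIPBL at 96 h lay on 77.8% of the regions with CDX2 at both stages and on 21.4% of those without CDX2, and at 144 h on 96.5% and 78.9%. Regions with CDX2 were wider, with a median of 1659 bp against 1213 bp, and the part of width in these shares was not tested. Their H3K27ac fold enrichment in the unnumbered 120 h list was 3.36 in the median, against 3.44 without CDX2. They lay a median of 60.2 kb from the nearest protein-coding start, against 39.1 kb.

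The letters of the CDX motif lay near CDX2 summits. The motifs searched, on both strands, were CDX (TTTATNG), the HOX9 core (TTTACGA), PBX-HOX (TGATTNAT), MEIS (TGACAG), TCF-LEF (CTTTGAT), POU (ATGCAAAT), SOX (ACAATGG), T-box (AGGTGTGA), GATA factors (AGATAA), FOX (TGTTTAC), the E-boxes of bHLH factors in the form CAGCTG and, searched separately, the form CATCTG, the RAR half-site (AGGTCA), TEAD (ACATTCC), AP-1 (TGANTCA) and KLF (GGGCGGG), of which CDX, PBX-HOX and the E-boxes can overlap. Within 50 bp of the CDX2 summit, the CDX letters were found in 80 of 239 gained regions at 96 h (33.5%) and 72 of 169 at 120 h (42.6%). In windows of the same length 500 bp to the side they were found in 6.28% and 5.33%. At CDX2 summits in comparison regions the shares were 24.8% and 29.3%, and in all other distal regions 29.3% and 31.4%.

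Around the NIPBL summit at 144 h, the CDX letters were also more frequent in gained regions. In 300 bp windows they were in 24.7% of 1313 gained regions, 14.2% of 1533 comparison regions and 20.1% of 7165 other distal regions with a NIPBL summit inside. Among the gained regions they were in 48.0% of the 279 with CDX2 and 18.4% of the 1034 without. At the midpoints of all regions the shares were 16.7%, 11.8% and 13.4%. The KLF letters, a GC-rich motif, had the opposite order to the comparison regions at NIPBL summits, with 3.20%, 12.3% and 5.76%, and at midpoints 3.62%, 11.2% and 3.19%. The gained regions held less GC than the comparison regions, with a median of 49.0% against 52.3% and 4.75 against 8.27 CpG per window in the mean, and all other distal regions had 48.3% and 5.47. Of the 16 motifs, 7 were above both other sets in both windows, namely CDX, PBX-HOX, MEIS, TCF-LEF, CATCTG, the RAR half-site and TEAD, while POU and AP-1 were below both in both. PBX-HOX, for example, was in 10.2%, 6.52% and 8.71% at NIPBL summits and POU in 1.14%, 1.57% and 1.59%. These shares describe letters in windows, and the part of GC content in them was not tested.

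The gained regions were assigned to the protein-coding gene with the nearest start. At least 1 gained region was assigned to 1422 of 21911 genes (6.49%). The 15 genes with most were picked by count, which also grows with the number of distal regions nearest to a gene. Lrmda, linked to melanocyte differentiation, had 13 of its 78 nearest distal regions in the gained set (16.7%), Sox6, a SOX factor of mesoderm and cartilage, 10 of 59 (16.9%), and Nr2f2, the orphan nuclear receptor COUP-TFII, 9 of 51 (17.6%). Gas1, a Hedgehog co-receptor, had 8 of 25 (32.0%), the highest share among the 15 genes with most gained regions. The other 11 were Gm10295 with 8, Ttc28 with 7, then Dnm3, a dynamin, Foxl1, a forkhead factor, Gm12830, Mycn, a Myc factor of progenitors, and Zfp36l1, which binds AU-rich mRNA, with 6 each, and Arglu1, Cdh11, a mesenchymal cadherin, Chd7, a chromatin remodeler, and Cxcl12, a chemokine, with 5 each. Nearest in the linear genome does not mean regulated by the region.

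Among 14 lists of genes for the tissue, shares are set against the 2.49% of all distal regions that were gained. Somite and paraxial mesoderm regulators had 20 of their 237 nearest distal regions in the gained set (8.44%), at 8 of 23 genes, led by the forkhead factor Foxc1 and the homeodomain factor Uncx with 4 each, and by Meox2 and Pax3 with 3 each. Hox genes had 4 of 48 (8.33%), with 2 at Hoxc4 and 1 each at Hoxb3 and Hoxc9. The retinoic acid pathway had 11 of 130 (8.46%), among them 2 each at Aldh1a3, which makes retinoic acid, and at Cyp26a1, which degrades it. These 3 lists had more gained than comparison regions, 20 against 8, 4 against 1 and 11 against 6. So did the lists of Notch genes (10 against 7), Hox cofactors (14 against 12), axial progenitor regulators (4 against 3) and cardiac and vascular regulators (4 against 3), described below. The Notch pathway and segmentation clock had 10 of 166 (6.02%), led by the ligand Jag1 with 3 and the effector Hey1 with 2. The Wnt pathway had 16 of 312 (5.13%), with 3 each at the feedback inhibitor Nkd1 and the effector Tcf7l2, but comparison regions made up 5.77% of its distal regions. Hox cofactors had 14 of 282 (4.96%), with 5 at Meis1 and 3 at Pknox2, both TALE homeodomain factors.

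The other lists lay nearer to the background or below it. Axial progenitor regulators had 4 of 90 (4.44%), with 2 at Greb1 and 1 at Evx1, and BMP and Nodal pathway genes 10 of 235 (4.26%), led by the inhibitor Smad7 with 3 and Id2 with 2. FGF pathway genes had 10 of 257 (3.89%), with 3 at Spred2 and 2 at Dusp6, both inhibitors of the pathway. Cardiac and vascular regulators had 4 of 132 (3.03%), with 2 at Fli1 and 1 at Erg. Naive pluripotency genes had 3 of 161 (1.86%), the same share as comparison regions, 1 each at Klf4, Nr5a2 and Tbx3. Neural tube regulators had 3 of 283 (1.06%), 1 each at Irx3, Msx2 and Nkx6-1, and intermediate and lateral mesoderm regulators 1 of 144 (0.694%), at Twist2. None of the 84 regions nearest to 10 endoderm regulators was gained, which allows a share of up to 3.57% if a limit of 3 counts is taken for a count of 0. No test was run on these lists, and a gene can be in a list whose tissue it does not mark alone.

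Single regions are described next, for 8 lists the region with the strongest H3K27ac in the numbered wt libraries at 120 h. Values are fold enrichments of the strongest overlapping H3K27ac region. High values in those wt libraries at 120 h follow from this choice, so their difference from 96 h is not read as a change. The Evx1 region at chr6:52368005-52369818 lay 54.5 kb downstream of Evx1, a homeodomain gene of the posterior growth zone. H3K27ac was kept from 96 h, at 3.72, 3.08, 3.24, 3.02, 2.73 and 3.98 from 96 h to 168 h. In the numbered wt libraries it stood at 4.22 and 4.09 at 96 h and 5.39 and 4.70 at 120 h. In the 8 deletion libraries it was called throughout, between 3.79 and 4.97 at 96 h and between 4.09 and 5.84 at 120 h. CDX2 was at 6.67 at 96 h, from 31 pairs over a background of 3.79, and at 8.82 at 120 h, from 36 pairs over 3.19. NIPBL was called in 6 of 8 lists, at 5.95 at 96 h and 6.78 at 144 h, and CTCF in none.

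The Msx2 region at chr13:53461871-53463318, 9.76 kb from Msx2, a homeodomain gene of the dorsal neural tube, was the 1 of the 10 described here with CTCF in both wt lists, at 15.2 and 14.9. RAD21 was called in 16 of 16 wt libraries, between 6.80 and 17.1, and NIPBL in 8 of 8 lists, between 3.54 and 5.08. H3K27ac was nevertheless absent at 48 h and kept from 72 h, with 5.60 and 5.90 in the numbered wt libraries at 96 h and 5.76 and 4.34 at 120 h. CDX2 was called at 96 h, at 6.23, and not at 120 h.

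The Hoxb3 region at chr11:96331822-96333594 lay in an intron, 3.76 kb downstream of the Hoxb3 start and within the HoxB cluster. It was kept from 72 h, between 3.19 and 5.40 in the unnumbered lists. The numbered wt libraries had 3.09 and 3.01 at 96 h and 2.70 and 2.41 at 120 h, so that both later values were lower. It differed from the others in that PolII was called in 8 of 8 lists, between 2.26 and 3.96. The Nkd1 region at chr8:88487973-88489405 lay 31.9 kb upstream of Nkd1, which antagonizes Wnt signaling, and was kept from 72 h. The numbered wt libraries had between 3.49 and 4.39 at 96 h and between 5.21 and 5.93 at 120 h, and NIPBL was called only at 144 h and 168 h, at up to 5.11.

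The Uncx region at chr5:139584546-139585309 lay 40.6 kb from Uncx, a homeodomain gene of the posterior part of each somite, and was kept from 108 h. The numbered wt libraries called it at 4.22 in 1 of 2 at 96 h and at 4.28 and 6.08 at 120 h. In the deletion libraries it was called in 3 of 4 at 96 h and 4 of 4 at 120 h, where all values lay between 4.67 and 5.22. NIPBL was found there only at 168 h, at 2.45, and RAD21, PolII, CDX2 and CTCF in no list. The Rdh10 region at chr1:16248323-16250300, in an intron of Stau2, lay 118 kb from Rdh10, which makes retinaldehyde, the precursor of retinoic acid. H3K27ac was called at 72 h, not at 84 h, and was kept from 96 h, with 4.01 and 6.08 in the numbered wt libraries at 96 h and 4.78 and 5.65 at 120 h, ranges that overlap. NIPBL came at 108 h and stayed, at 4.42, 6.48, 6.69, 7.49 and 5.07 to 168 h.

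The Fgfr2 region at chr7:130334397-130336538 lay in an intron of this FGF receptor gene, 68.1 kb from the nearest start. The numbered wt libraries had between 3.54 and 4.17 at 96 h and between 3.89 and 5.26 at 120 h, and NIPBL was called in 5 of 8 lists, at 6.38 at 144 h and 6.51 at 168 h. CDX2 was not called there in any list, although the CDX letters lay near the NIPBL summit. The Tshz3 region at chr7:36317070-36318100 lay 380 kb upstream of Tshz3, a zinc finger gene of the teashirt family, and was kept from 72 h. It had between 4.24 and 4.29 in the numbered wt libraries at 96 h and between 3.69 and 4.96 at 120 h. NIPBL was called in none of the 8 lists there, and RAD21 in 2 of 16, although H3K27ac was called in 20 of 21.

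The region of 1 Mb on each side of the HoxD cluster (chr2:74668310-74765142) held 2 gained regions, both on the telomeric side beyond Mtx2, where the T-DOM lies. The nearer one, chr2:75088611-75090937, was 323 kb from the cluster and was kept from 84 h. Its H3K27ac in the numbered wt libraries was 2.93 and 2.95 at 96 h and 4.69 and 3.97 at 120 h, so that the stages did not overlap. In the 4 deletion libraries at 120 h it was between 3.51 and 3.99, and at 96 h between 2.42 and 3.75, and it was called in all of them. NIPBL was called at 96 h and from 120 h to 168 h, between 3.18 and 4.66, and RAD21 in 7 of 16 libraries, those of 108 h, 132 h and 144 h. The farther one, chr2:75244194-75245521, was 479 kb away in an intron of 2600014E21Rik and was kept from 96 h. It had 3.74 and 5.13 in the numbered wt libraries at 96 h and 5.20 and 4.30 at 120 h, ranges that overlap, and between 3.84 and 6.21 in the 8 deletion libraries. NIPBL was called there at 108 h, 144 h and 168 h, between 3.33 and 3.34, and RAD21 in 2 of 16 libraries. Neither had CDX2, CTCF or PolII in any list.

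**Figure D5:**
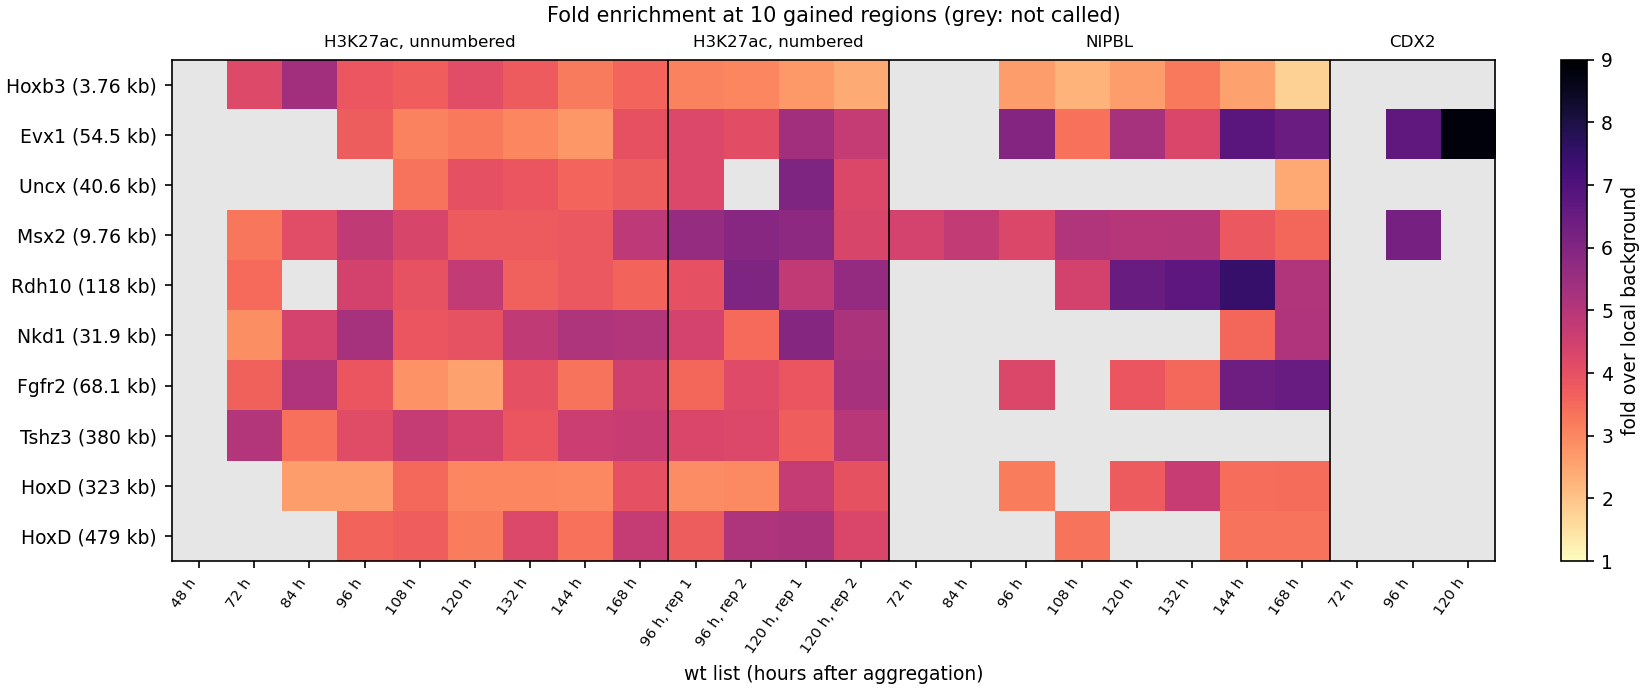
Fold enrichment over local background, by color, at the 10 gained regions described one by one (vertical axis, named by the listed gene or by HoxD, with the distance in kb) in each wt list of H3K27ac, NIPBL and CDX2 (horizontal axis, stage in hours), with grey for no call. Every region had H3K27ac from 120 h on, while NIPBL ranged from none of 8 lists at the Tshz3 region to 8 of 8 at the Msx2 region, and CDX2 was on the Evx1 and Msx2 regions alone.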

How the data were processed

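Of the peak lists, 69 were used, each made by the authors from 1 library, except for 1 pooled pSer2 PolII list. Reads were trimmed with cutadapt 1.16 and mapped to mm10 with Bowtie2 2.3.4.1, and proper pairs with a mapping quality above 30 were kept with SAMtools 1.8, per the submitters' notes and the study's methods. The authors called peaks with MACS2 2.1.1.20160309 without an input library, so a fold is relative to the library's own local background. The deposited columns used were the fold enrichment (a ratio), the −log10 p and −log10 q values, the score and the summit position. The authors did not normalize the lists to each other, and the depth of a list can change how many regions pass. Fragment pairs at a summit were worked back from the fold and the −log10 p value, where the fold adds 1 pair to each side, which gave whole numbers for 94.5% to 100% of 181 to 1000 peaks sampled per list, to within 0.001 on the −log10 p value. Lists of mutant CTCF, RAD21 and H3K27me3 libraries were not used here.

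Regions on 21 assembled chromosomes were merged, and a list called a region when it overlapped by at least 1 base. Wider regions are met more easily by this rule. The part of width in the shares set against all distal regions was not tested. Starts came from GENCODE vM21 and sequence from RefSeq GRCm38.p6. Groups were taken from the labels, and the regions and gene lists were chosen with earlier results of these data known. Call rates were compared by exact permutation within strata (two-sided) and stage trends by exact permutation of stages, with Benjamini-Hochberg adjustment over 6 tests, after tests on simulated data (Python 3.11.15, NumPy 2.4.6, SciPy 1.17.1, pandas 2.3.3, pysam 0.24.0, matplotlib 3.10.9). Genes named were the 15 with most gained regions nearest, the leading genes of each list, and, one by one, the strongest region in numbered wt libraries at 120 h for 8 lists and every region within 1 Mb of HoxD. A further region with high CDX2 is not reported here.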

Additional observations from a re-analysis of the deposited data

How the results depend on the processing

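The rise of the gained regions between 96 h and 120 h, and its excess over the comparison regions, kept their direction under 15 and 18 alternatives and stayed on their side of the threshold, among them 500 bp windows and a ratio of percentages, both chosen after seeing the data. The choice of regions favors the rise and the excess under each of these alternatives, so both remain a description. Leaving out 1 library at a time gave 28.5 to 30.2 points for the rise and 22.8 to 23.5 points for the excess. With the replicate number as a block, the rise was 29.4 points and the excess 23.1 points, and neither passed any longer (exact permutation, adjusted p = 0.0735 for each, n = 12), since fewer arrangements remain. The numbers did not pair the samples, with correlations of deviations between -0.00439 and 0.00557. The difference of the deletions from wt ranged from 0.924 to 3.43 points when 1 library was left out, was 6.42 points at a −log10 q of 5 or more (exact permutation, adjusted p = 0.0733, n = 12), and the block gave 2.18 points (exact permutation p = 0.148, n = 12). The NIPBL trend passed the threshold with equal list lengths (rho 0.83), against all other distal regions (0.98) and without 168 h (0.86), and ranged from 0.64 to 0.86 over stages left out. At a −log10 q of 5 or more (0.71), in 500 bp windows (0.74) and as a ratio (0.79) it did not pass. With at least 10% of the region covered (0.79) it did not pass either. The PolII trend passed against all other distal regions (0.86, exact permutation, adjusted p = 0.0214, n = 8), was 0.74 as a ratio (adjusted p = 0.0687), and ranged from -0.0357, without 72 h or 84 h, to 0.46. It did not pass at a −log10 q of 5 or more (0.05), with equal list lengths (0.48) or in 500 bp windows (0.19). With at least 10% of the region covered it was 0.31. The RAD21 trend passed against all other distal regions (0.83), as a ratio (0.83) and in the libraries with the label tag cell line (0.86), and ranged from 0.54 to 0.75 over stages left out. It did not pass at a −log10 q of 5 or more (0.57), with equal list lengths (0.62) or in 500 bp windows (0.52). Without regions that had CTCF (0.71) and with the label tag cell type (0.75) it did not pass either. The NIPBL, PolII and RAD21 trends compare sets that the choice of regions made differ in H3K27ac at 48 h, and the part of that choice was not tested. CDX2 at 120 h covered 8.38% of the gained regions when its summit had to lie inside, and 7.24% at a −log10 q of 5 or more. The cause was not tested for these changes. With a distance limit of 1 kb or 5 kb, or protein-coding starts only, 2209, 1786 and 2250 regions met the rule. A region that no list holds at a stage may lie below the calling limit, which depth sets, and 1 list per stage leaves NIPBL, PolII and CDX2 without a replicate check.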
